A study of Mus musculus with 12 samples.

Results

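Expression of 9 genes for oxidation and ester hydrolysis was described across all mouse lung libraries of an RNA sequencing study: the aldehyde oxidase genes Aox1 and Aox3, the flavin-containing monooxygenase genes Fmo1 and Fmo2, the carboxylesterase genes Ces1d, Ces1f and Ces1g, and the cytochrome P450 genes Cyp1a1 and Cyp4b1. They were taken by symbol from the 19726 genes of the deposited table. All 9 were found, and all 9 were among the 15863 genes that passed the low-count filter. The 12 libraries formed 4 groups of 3. Mice of the busulfan+AOS group were given a single dose of busulfan (40 mg/kg) followed by alginate oligosaccharides (AOS) at 10 mg/kg over 5 weeks. Those of the busulfan group had the same single dose alone, those of the AOS group had 10 mg/kg of AOS over 5 weeks with no busulfan, and control mice were left untreated. Busulfan is a DNA-alkylating drug used to clear the bone marrow, and AOS are short sugar chains cut from the alginate of brown seaweed. The labels give the strain as IRC, give neither age nor sex, and do not say whether the 3 libraries of a group came from separate animals, so p-values measure only the spread between these libraries. Library totals lay between 16209221 and 17168764 estimated counts.

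These enzymes modify foreign chemicals and many natural lipids and aldehydes before they are conjugated or excreted. Aldehyde oxidases are cytosolic enzymes that carry molybdenum cofactor, flavin and iron-sulphur clusters, and they oxidise aldehydes and nitrogen-containing rings. Flavin-containing monooxygenases add oxygen to nitrogen and sulphur atoms, P450 enzymes oxidise carbon with electrons from a reductase, and carboxylesterases split esters, amides and stored lipids. Lung is known for its own set of these enzymes, with Fmo2 and Cyp4b1 as typical pulmonary forms. Busulfan itself is cleared by conjugation to glutathione, and sulphur-containing products of that conjugate are oxidised by flavin-containing monooxygenases and P450 enzymes in humans.

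Positions are those of RefSeq on GRCm38, the assembly that mm10 names. Aox1 (Entrez gene 11761, chr1:58029809-58106410, plus strand) and Aox3 (Entrez gene 71724, chr1:58113135-58202221, plus strand) stand head to tail in the aldehyde oxidase cluster. Fmo1 (Entrez gene 14261, chr1:162829561-162866610, minus strand) and Fmo2 (Entrez gene 55990, chr1:162874317-162898758, minus strand) are neighbours on the same chromosome. Ces1d (Entrez gene 104158, chr8:93166072-93197804), Ces1f (Entrez gene 234564, chr8:93256236-93279766) and Ces1g (Entrez gene 12623, chr8:93302369-93337209) share the minus strand of the carboxylesterase cluster. Cyp1a1 (Entrez gene 13076, chr9:57687928-57703824) lies on the plus strand, and Cyp4b1 (Entrez gene 13120, chr4:115624698-115647721) on the minus strand. Stretches of 50 bases shared with the transcripts of other genes made up 0% of the longest transcripts of Aox1, Aox3, Fmo1 and Fmo2, and 1.28% for Ces1d, 1.60% for Ces1f, 1.67% for Ces1g, 3.55% for Cyp1a1 (shared mainly with Cyp1a2) and 10.3% for Cyp4b1 (shared mainly with its pseudogene copy Cyp4b1-ps2). Reads of those stretches could have been split between copies, so levels of the carboxylesterases and P450 genes are the less certain ones.

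Promoter windows of RefSeq starts, each from 250 bases before to 50 bases after the start, were given for 6 of the 9 genes. Of these, 3 are shown, because Aox1 and Aox3 are adjacent genes of 1 family, and because Cyp1a1 is the standard target of the aryl hydrocarbon receptor, whose own transcript fell after busulfan. The lines begin 250 bases before the RefSeq start and stop where, further on, an annotated exon or the gene interval given above begins, on GRCm38.p6, plus strand: chr1:58029719-58029808 for Aox1, chr1:58112886-58113129 for Aox3 and chr9:57697363-57697612 for Cyp1a1. The Cyp1a1 line lies inside the gene interval, which begins at 57687928 with the first exon of a longer transcript; the window belongs to a start further along the gene. Capitals mark matches, on either strand, to GCGTG (the core of the aryl hydrocarbon receptor element), CCAAT (the CCAAT box) or TATAAA (the TATA box).
Aox1: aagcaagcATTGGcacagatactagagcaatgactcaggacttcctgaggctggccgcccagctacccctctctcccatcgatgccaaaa
Aox3: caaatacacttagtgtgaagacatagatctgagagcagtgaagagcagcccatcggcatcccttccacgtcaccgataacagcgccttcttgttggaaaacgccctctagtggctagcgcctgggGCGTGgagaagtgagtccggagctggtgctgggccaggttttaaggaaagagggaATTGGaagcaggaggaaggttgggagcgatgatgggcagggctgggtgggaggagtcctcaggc
Cyp1a1: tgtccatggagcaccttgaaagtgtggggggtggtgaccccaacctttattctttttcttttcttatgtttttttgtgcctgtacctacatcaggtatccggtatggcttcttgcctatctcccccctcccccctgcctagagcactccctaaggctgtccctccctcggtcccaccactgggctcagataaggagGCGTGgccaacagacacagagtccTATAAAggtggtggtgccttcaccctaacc
Aox1 held GCGTG, on the reverse strand, at -137 and CCAAT, on the reverse strand, at -242 and -82 relative to the RefSeq start. Of these, the match at -242 is in the printed bases, and the others lie inside the gene interval, which begins at 58029809. Aox3 held GCGTG at -125 and CCAAT, on the reverse strand, at -70. Cyp1a1 held GCGTG at -54 and TATAAA at -30. Of all 32851 windows of this length, 32.4% held GCGTG, 37.4% CCAAT and 13.6% TATAAA, and no match overlapped another in these 3 windows. Among the other windows, Ces1g held CCAAT at -179 and, on the reverse strand, at -58, and TATAAA, on the reverse strand, at -26. A match describes the letters and is not evidence of binding.

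Levels between genes were compared in FPKM, the authors' value per length of transcript. In control lungs the genes formed a high and a low set. Ces1d, a lipase-like esterase also called triacylglycerol hydrolase, had the highest mean (460 ± 27.9 FPKM, SD, n = 3), rank 114 of all genes in the table. Fmo2 followed with 419 ± 58.9 FPKM, Fmo1 with 324 ± 29.4 and Cyp4b1 with 299 ± 22.6 FPKM. Aox3 stood at 58.4 ± 7.81 FPKM and Aox1 at 20.5 ± 1.30. The lowest were Cyp1a1 at 14.3 ± 6.20, Ces1f at 13.4 ± 2.06 and Ces1g at 12.3 ± 4.99 FPKM. Neighbours in this order whose control libraries overlapped were Ces1d and Fmo2, Fmo1 and Cyp4b1, and Aox1, Cyp1a1, Ces1f and Ces1g in turn. The gaps between Fmo2 and Fmo1, Cyp4b1 and Aox3, and Aox3 and Aox1 held in every control library.

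The order changed in part in lungs given AOS, busulfan or both. In AOS lungs Ces1f stood above Cyp1a1 (14.2 ± 2.60 against 10.8 ± 0.827 FPKM) with no overlap. Fmo1 took the fourth place, after Cyp4b1, in busulfan+AOS lungs, where Fmo1 averaged 222 ± 19.7 FPKM and Cyp4b1 285 ± 25.3 FPKM with no overlap, and the fourth place in busulfan lungs, where the 2 genes overlapped. Fmo2 had a higher mean than Ces1d in busulfan lungs (416 ± 17.0 against 367 ± 70.8 FPKM), again with overlap. The ratio of Fmo2 to Fmo1 within a library averaged 1.79 ± 0.0782 in busulfan+AOS lungs and 1.63 ± 0.208 in busulfan lungs, against 1.22 ± 0.0742 in AOS lungs and 1.30 ± 0.154 in control lungs. The lowest ratio among the libraries given busulfan was 1.40, and the highest among those without it was 1.47. As descriptions with no test, the ratio of Aox3 to Aox1 averaged 1.76 ± 0.470 in busulfan+AOS lungs, 2.75 ± 0.507 in busulfan lungs, 3.33 ± 0.325 in AOS lungs and 2.85 ± 0.427 in control lungs.

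**Figure D1:**
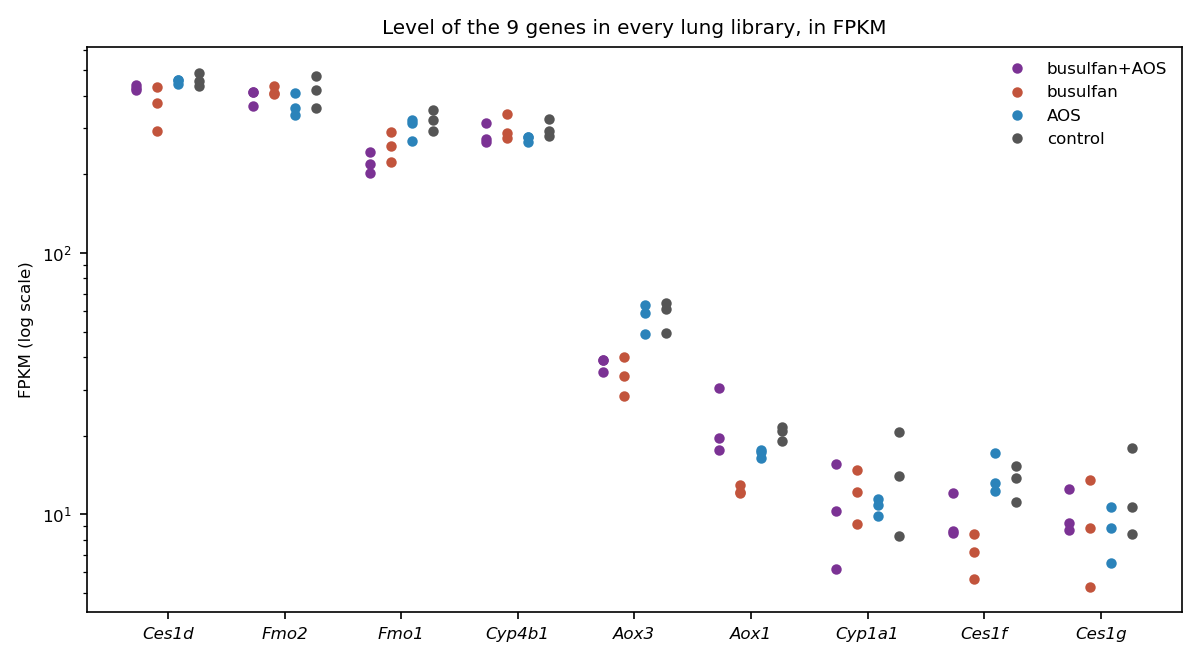
Level in FPKM (log scale) of each of the 9 genes, ordered by their mean in control lungs; each point is 1 library, with groups from left to right busulfan+AOS, busulfan, AOS and control. Ces1d, Fmo2, Fmo1 and Cyp4b1 lie above the other 5 genes in every library, and Aox3 lies between the sets.

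Changes were measured on CPM, which scale each gene's count to the size of its library after TMM correction. They were tested by the quasi-likelihood F test of edgeR, p-values were adjusted by Benjamini and Hochberg's method over all genes, and a gene was called at an adjusted p under 0.05. The SE of a log2 fold change was derived from the F statistic. The average effect of busulfan set the mean of the busulfan+AOS and busulfan groups against the mean of the AOS and control groups. In that comparison Aox3, Fmo1 and Ces1f fell and none of the other 6 genes was called. A share of 4.81% of all genes tested fell and 7.02% rose, against 3 and 0 of these 9. With upper-quartile scaling in place of TMM the split over all genes was 767 higher and 1092 lower, against 1114 higher and 763 lower with TMM, and the same 3 members were called. The median log2 change of the 9 genes was -0.13 and that of all genes -0.01. In a bulk tissue, fewer cells of a type and less RNA per cell cannot be told apart.

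**Figure D2:**
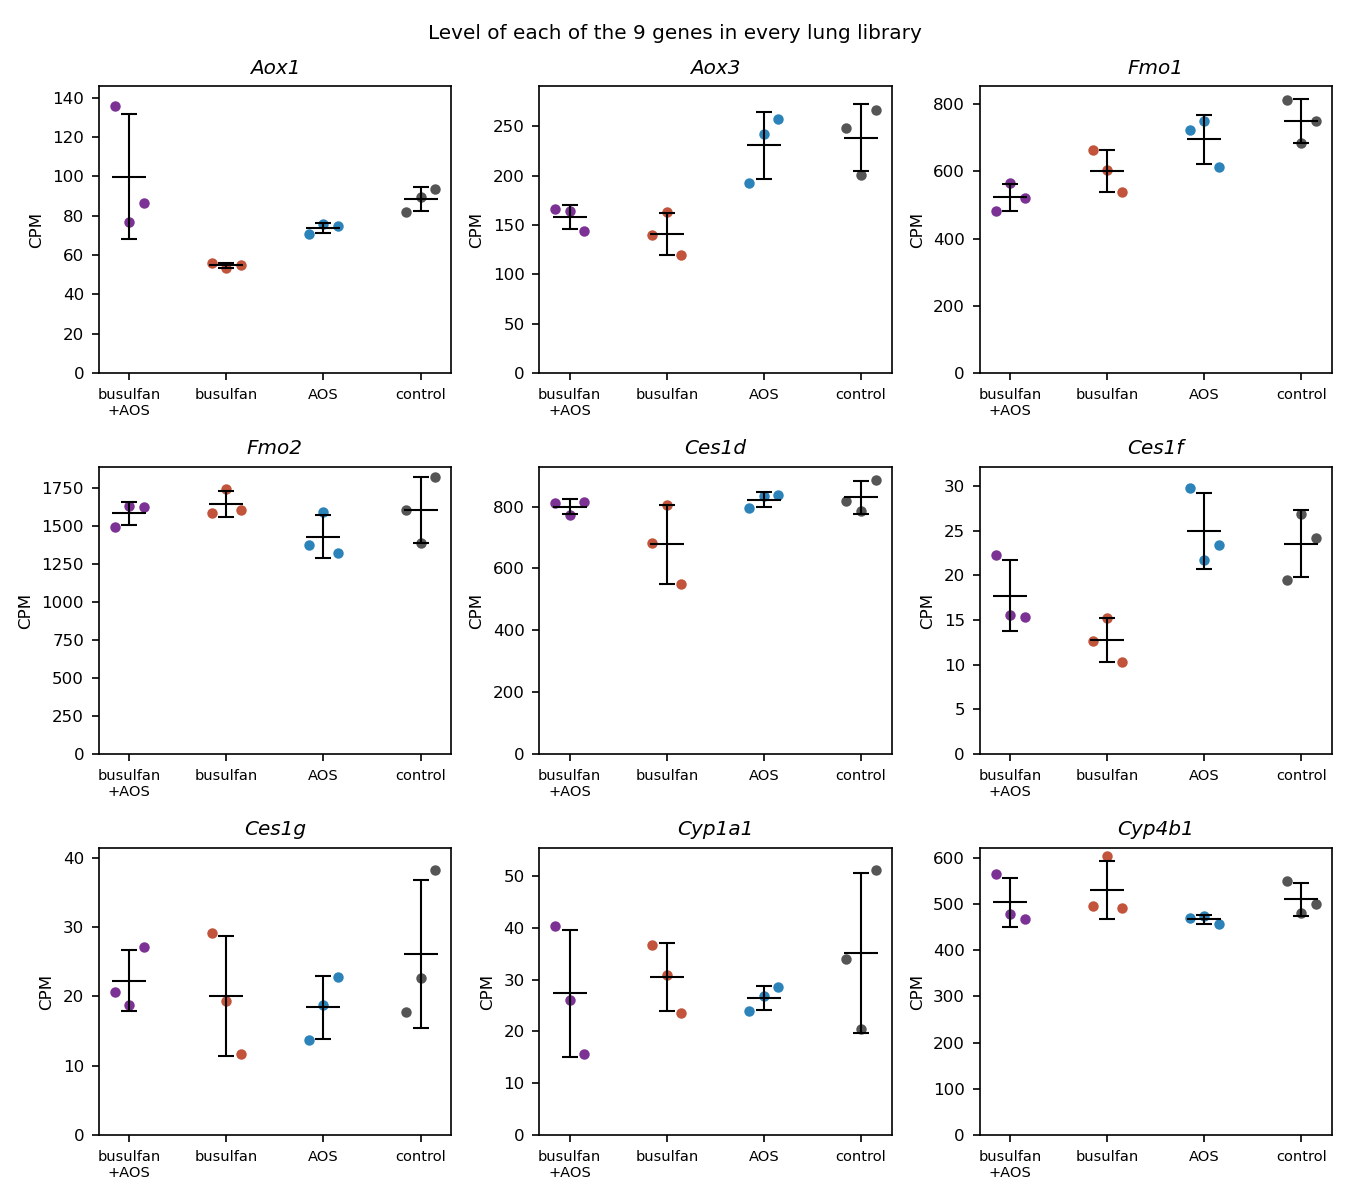
Level in CPM of each of the 9 genes; each point is 1 library, the horizontal bar is the mean and the whiskers are 1 SD (n = 3), with groups from left to right busulfan+AOS, busulfan, AOS and control. Aox3 is lower in every library given busulfan than in every library without it, Aox1 is lowest in busulfan lungs and highest in 1 busulfan+AOS library, and Fmo2 and Cyp4b1 overlap between groups given and not given busulfan.

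Aox3, an aldehyde oxidase of mouse liver and lung, fell with busulfan. It stood at 166, 164 and 144 CPM in busulfan+AOS lungs and 140, 163 and 120 CPM in busulfan lungs. AOS lungs had 193, 242 and 258 CPM and control lungs 248, 201 and 267 CPM. Each of the 6 libraries given busulfan was below each of the 6 without it, which held in the same direction for 2.61% of all genes tested. The average log2 change was -0.65 (SE 0.10, edgeR adjusted p = 0.00484), a level 36.4% lower. The call stood in 12 of 12 fits made with 1 library fewer. Within the pairs, Aox3 fell by 0.76 in busulfan against control lungs (SE 0.14, edgeR adjusted p = 0.0398), where it was the 1 member called among 0.479% of genes lower and 0.731% higher. That call stood in 4 of 12 such fits; it ended without any 1 of the 3 control or 3 busulfan libraries, without AOS library 2 and without busulfan+AOS library 2 (edgeR adjusted p up to 0.13). It also ended with a hepatocyte (edgeR adjusted p = 0.149), club cell (0.122) or adipocyte (0.0526) marker score as a covariate, with only those groups fitted (0.124), and with the replicate block (0.091). Over all genes, those fits gave 41, 47, 137, 13 and 55 calls for busulfan against control, in the order given, against 192. In busulfan+AOS against AOS lungs the log2 difference was -0.55 (SE 0.14, edgeR adjusted p = 0.0698), not called.

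Aox1, the other aldehyde oxidase of this set, was not called in the busulfan average or in either pair. It was measured at 136, 76.9 and 86.6 CPM in busulfan+AOS lungs and at 56.1, 53.3 and 54.7 CPM in busulfan lungs. AOS lungs had 70.6, 75.9 and 74.6 CPM and control lungs 82.0, 89.6 and 93.7 CPM. The 3 busulfan libraries were the lowest of all 12, and busulfan+AOS library 1 was the highest. In busulfan against control lungs the log2 difference was -0.69 (SE 0.17, edgeR adjusted p = 0.077), with all busulfan libraries below all control libraries; with the hepatocyte marker score as a covariate it was -0.43 (edgeR adjusted p = 0.274). Of the 9 genes, Aox1, Aox3, Fmo1 and Ces1f had groups that did not overlap and were lower in this comparison, as had 11.3% of all genes. DESeq2 called Aox1, Aox3 and Ces1f here, among 6.16% of the genes it tested. In busulfan+AOS against AOS lungs Aox1 differed by 0.44 (SE 0.17, edgeR adjusted p = 0.177), with all busulfan+AOS libraries above all AOS libraries, as for 14.5% of all genes; without busulfan+AOS library 1, the highest of all, this difference was 0.15 (edgeR adjusted p = 0.347). Over both pairs the average was -0.13 (95% interval -0.39 to 0.14), and -0.00 with the hepatocyte score. Without busulfan+AOS library 1 it was -0.27 and was called (edgeR adjusted p = 0.0149), and so was busulfan against control at -0.69 (edgeR adjusted p = 0.00246).

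Fmo1, which oxidises nitrogen- and sulphur-containing drugs in kidney and other tissues of the mouse, fell with busulfan. Its levels were 483, 565 and 521 CPM in busulfan+AOS lungs and 664, 605 and 538 CPM in busulfan lungs. AOS lungs had 723, 751 and 613 CPM and control lungs 814, 685 and 751 CPM. Overlap over the 12 libraries came from busulfan library 1, which was above AOS library 3. The average log2 change was -0.36 (SE 0.07, edgeR adjusted p = 0.0139), a level 22.3% lower. It was called in 12 of 12 fits with 1 library fewer, but not with the adipocyte marker score as a covariate (-0.30, edgeR adjusted p = 0.0983). With that score fewer of all genes were called too, 10 against 365 in busulfan+AOS against AOS lungs. Neither pair was called alone: the log2 difference was -0.41 (SE 0.11, edgeR adjusted p = 0.0671) in busulfan+AOS against AOS lungs and -0.32 (SE 0.11, edgeR adjusted p = 0.153) in busulfan against control lungs. In busulfan+AOS against AOS lungs 0 of the 9 genes were called by edgeR and 0 by limma-voom. Over all genes edgeR called 2.30% there (0.744% lower, 1.56% higher). At an unadjusted p under 0.05 edgeR had 4 of the 9 and 3254 of the 15863 genes tested. DESeq2 called Aox3 (adjusted p = 0.00601) and Fmo1 (adjusted p = 0.00595) there, among 8.21% of genes. The same genes, Aox3 and Fmo1, were lower without overlap in that pair, as were 12.8% of all genes. For the pairs, upper-quartile scaling gave 83 higher and 95 lower genes for busulfan against control, where TMM gave 116 and 76, and 199 and 198 for busulfan+AOS against AOS, where TMM gave 247 and 118.

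Fmo2, the main flavin-containing monooxygenase of lung, was not called in any comparison. Its levels were 1498, 1633 and 1625 CPM in busulfan+AOS lungs, 1588, 1743 and 1611 CPM in busulfan lungs, 1378, 1595 and 1325 CPM in AOS lungs, and 1609, 1388 and 1826 CPM in control lungs. The 6 libraries given busulfan lay within the range of the others. The average log2 difference with busulfan was 0.09 (95% interval -0.07 to 0.25, edgeR adjusted p = 0.445). The intervals of the averages of Fmo1, -0.53 to -0.20, and Fmo2 did not overlap, though the difference between the genes was not tested.

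**Figure D3:**
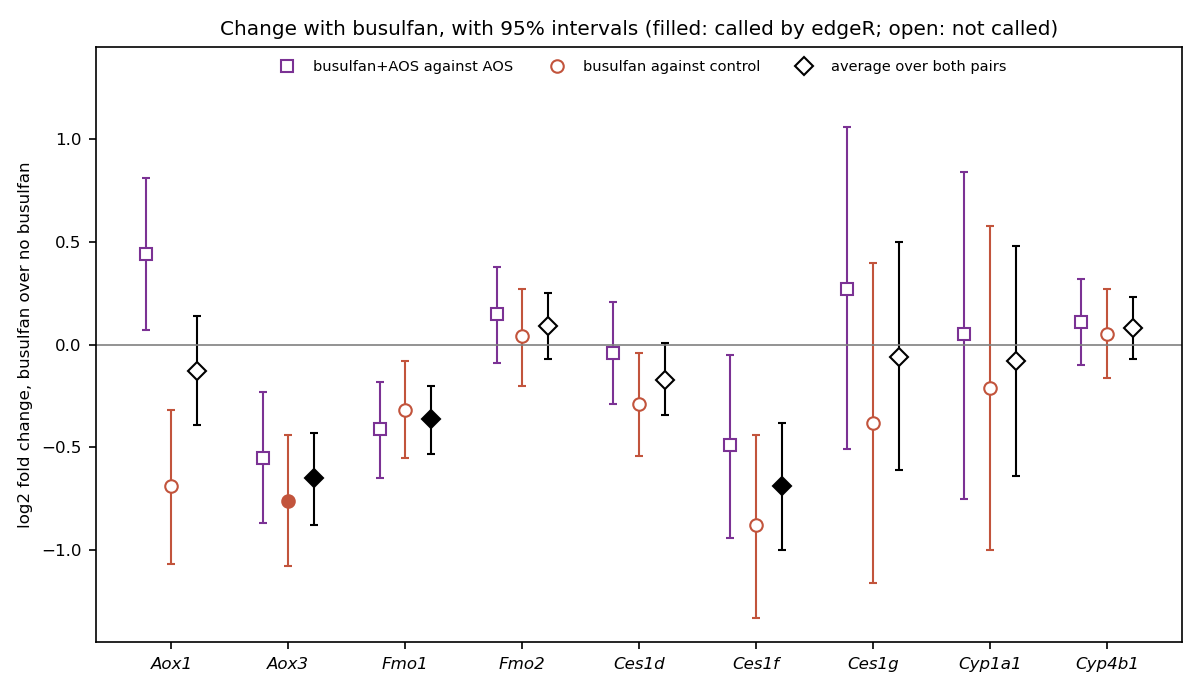
Log2 fold change with its 95% interval for each of the 9 genes: busulfan+AOS against AOS lungs (squares), busulfan against control lungs (circles) and the average over both pairs (diamonds); filled symbols were called by edgeR. The filled symbols are those of Aox3 (-0.76 and -0.65), Fmo1 (-0.36) and Ces1f (-0.69), and the symbols of Aox1 lie on opposite sides of 0 in the 2 pairs (0.44 and -0.69).

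Ces1f, a carboxylesterase that is abundant in liver and hydrolyses lipids, fell with busulfan. It had 22.3, 15.6 and 15.3 CPM in busulfan+AOS lungs and 12.7, 15.2 and 10.3 CPM in busulfan lungs. AOS lungs had 29.8, 21.7 and 23.4 CPM and control lungs 19.5, 26.9 and 24.2 CPM. All libraries given busulfan except busulfan+AOS library 1 were below all libraries without it. The average log2 change was -0.69 (SE 0.14, edgeR adjusted p = 0.0138), a level 38% lower. It was called in 12 of 12 fits with 1 library fewer, but not with the adipocyte marker score as a covariate (-0.52, edgeR adjusted p = 0.0774), which lowered calls over all genes too. For the pairs, the log2 difference was -0.49 (SE 0.20, edgeR adjusted p = 0.195; -0.17 with the adipocyte score) in busulfan+AOS against AOS lungs and -0.88 (SE 0.20, edgeR adjusted p = 0.0661) in busulfan against control lungs. The comparison of busulfan with control became a call without busulfan+AOS library 1 (edgeR adjusted p = 0.0468).

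Ces1d, the most abundant of the 9 genes in control lungs, had 812, 773 and 814 CPM in busulfan+AOS lungs and 683, 804 and 548 CPM in busulfan lungs. AOS lungs had 794, 835 and 838 CPM and control lungs 817, 784 and 887 CPM. Busulfan libraries 1 and 3 were below all the others, while busulfan library 2 was not. The average log2 difference was -0.17 (95% interval -0.34 to 0.01, edgeR adjusted p = 0.2), and leaving out busulfan library 2 turned it into a call (-0.24, edgeR adjusted p = 0.0443). Within a library, Ces1d was 45.2 ± 8.62 times Ces1f in FPKM in busulfan+AOS lungs, 51.7 ± 0.467 times in busulfan lungs, 32.8 ± 6.10 times in AOS lungs and 34.9 ± 6.20 times in control lungs.

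Ces1g, a carboxylesterase with a role in hepatic lipid metabolism, varied more within groups than between them. Its levels were 20.7, 18.8 and 27.2 CPM in busulfan+AOS lungs, 29.1, 19.4 and 11.7 CPM in busulfan lungs, 13.7, 18.8 and 22.8 CPM in AOS lungs, and 17.7, 22.6 and 38.2 CPM in control lungs. The average log2 difference with busulfan was -0.06 with a 95% interval of -0.61 to 0.50 (edgeR adjusted p = 0.904). The Ces1f average of -0.69 lay below this interval, but the intervals of Ces1f and Ces1g overlapped. The difference between these genes was not tested.

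Cyp1a1, the P450 gene induced by the aryl hydrocarbon receptor, also overlapped between all groups. It had 40.3, 26.0 and 15.7 CPM in busulfan+AOS lungs, 36.7, 31.0 and 23.6 CPM in busulfan lungs, 24.0, 26.8 and 28.6 CPM in AOS lungs, and 34.0, 20.4 and 51.1 CPM in control lungs. The coefficient of variation was 45.3% in busulfan+AOS lungs and 43.8% in control lungs, against 21.6% in busulfan lungs and 8.68% in AOS lungs. The average log2 difference with busulfan was -0.08 (95% interval -0.64 to 0.48, edgeR adjusted p = 0.86).

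Cyp4b1, a P450 of lung that activates several lung toxicants, was not called in any comparison. It had 565, 478 and 468 CPM in busulfan+AOS lungs, 496, 603 and 492 CPM in busulfan lungs, 469, 475 and 457 CPM in AOS lungs, and 550, 481 and 501 CPM in control lungs. The average log2 difference with busulfan was 0.08 (95% interval -0.07 to 0.23, edgeR adjusted p = 0.457).

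AOS alone against control, busulfan+AOS against busulfan, the average of AOS, and the interaction of both agents called 0 of the 9 genes with edgeR. The share of all genes called by edgeR was 0 in each of the 4, and by limma-voom it was 0 genes as well. At an unadjusted p under 0.05 edgeR had 642, 1006, 847 and 760 genes in these comparisons, in the order given, and 0, 2, 1 and 1 of the 9. DESeq2 called 11, 29, 13 and 16 genes, of which 0, 1, 0 and 1 were among the 9. In each case the gene was Aox1. In busulfan+AOS against busulfan lungs Aox1 differed by 0.87 on the log2 scale (SE 0.17, edgeR adjusted p = 0.769, DESeq2 adjusted p = 0.00141, with 0.183% of genes called by DESeq2). All busulfan+AOS libraries were above all busulfan libraries for Aox1 and Ces1f, as for 4.68% of all genes, and the Ces1f difference was 0.47 (95% interval 0.03 to 0.92, edgeR adjusted p = 0.769).

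The interaction asked whether the difference made by busulfan was the same with and without AOS. For Aox1 it was 1.13 on the log2 scale (SE 0.24, unadjusted p = 0.00068, edgeR adjusted p = 0.989, DESeq2 adjusted p = 0.00867), and DESeq2 called 0.101% of genes. Without busulfan+AOS library 1 the Aox1 interaction was 0.84 (edgeR adjusted p = 0.155). With the hepatocyte marker score as a covariate it was 0.86. For the other 8 genes the interaction ranged between -0.09 for Fmo1 and 0.66 for Ces1g, each with an edgeR adjusted p of at least 0.989. In AOS against control lungs, Aox1 and Cyp4b1 had all AOS libraries below all control libraries, as had 4.78% of all genes, with log2 differences of -0.26 (95% interval -0.64 to 0.11) and -0.13 (95% interval -0.34 to 0.08). Aox3 differed by -0.05 there (95% interval -0.36 to 0.27).

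The other genes of the same enzyme families and of the pathways around them were counted from lists, for the average of busulfan. In that comparison 7.02% of all genes tested rose and 4.81% fell. Of the genes listed with Aox1 and Aox3, Aox2 and Aox4 did not pass the filter, with means of at most 0.0233 FPKM in any group. Xanthine dehydrogenase (Xdh) was not called, and neither was sulphite oxidase (Suox), a molybdenum enzyme outside the aldehyde oxidase family. Of 7 genes that make or carry molybdenum cofactor, 0 were called by edgeR, with a median log2 difference of -0.01. Among the other flavin-containing monooxygenases 0 of 3 tested were called by edgeR, with a median log2 difference of -0.29.

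Of 10 other carboxylesterase family genes tested, 1 rose and 0 fell, where 7.02% of all genes tested rose and 4.81% fell. The median log2 difference of these 10 was -0.70. The pairs differed in sign: the median was 0.13 in busulfan+AOS against AOS lungs and -1.20 in busulfan against control lungs, where the medians of the hepatocyte markers were 0.62 and -3.89. The lowest averages were those of Ces3a (-1.70), Aadac (-1.64), Ces3b (-1.56) and Ces1c (-1.46), esterase genes of liver that were not called (edgeR adjusted p = 0.154, 0.3, 0.235 and 0.285). The part of the hepatocyte markers in these values was not tested. Ces2e, a carboxylesterase of the second subfamily best known from intestine and liver, averaged 13.2 ± 3.08 CPM in busulfan+AOS lungs and 12.7 ± 1.74 CPM in busulfan lungs, against 5.09 ± 0.598 CPM in AOS lungs and 4.96 ± 1.36 CPM in control lungs (SD, n = 3 each). The 6 libraries given busulfan were all above the 6 without it, as for 624 of the 15863 genes tested. Ces2e rose by 1.36 on the log2 scale (SE 0.16, edgeR adjusted p = 0.0013). This direction was opposite to that of Ces1f in the same libraries, and Ces2e was called in 12 of 12 fits with 1 library fewer.

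Of 25 other P450 genes of families 1 to 4, 1 rose and 1 fell, where 7.02% of all genes tested rose and 4.81% fell. Cyp2b10, a phenobarbital-inducible P450 that is also a lung form, averaged 253 ± 15.7 CPM in the 6 libraries given busulfan and 217 ± 14.5 CPM in the 6 without it, a rise of 0.22 (SE 0.06, edgeR adjusted p = 0.0328). Cyp2b10 was not called in busulfan+AOS against AOS lungs (edgeR adjusted p = 0.201) or in busulfan against control lungs (0.149). Its call ended without control library 2 or 3, AOS library 1 or 3, busulfan library 2 or 3, or busulfan+AOS library 1 or 2 (edgeR adjusted p up to 0.0782), under upper-quartile scaling (0.073) and with the hepatocyte (0.0646) or adipocyte (0.0525) score. Cyp4f18, a fatty acid and leukotriene hydroxylase of white blood cells, fell by 0.99 (SE 0.22, edgeR adjusted p = 0.0189), with means of 3.90 ± 1.07 CPM with busulfan and 7.67 ± 2.17 CPM without it. Libraries given and not given busulfan overlapped. Its pairs were not called alone: -0.76 (edgeR adjusted p = 0.204) in busulfan+AOS against AOS lungs and -1.23 (0.0878) in busulfan against control lungs. Of 11 electron donor and haem supply genes, 0 rose and 1 fell: Fech, which inserts iron into haem, fell by 0.39 in the average (SE 0.11, edgeR adjusted p = 0.0417). Neither pair was called: -0.64 (edgeR adjusted p = 0.0556) in busulfan+AOS against AOS lungs and -0.14 (0.672) in busulfan against control lungs. Mean levels of Fech were 55.5, 81.7, 86.3 and 90.0 CPM in busulfan+AOS, busulfan, AOS and control lungs. The call of the average ended without control library 2 or 3, AOS library 1 or 3 or any 1 of the busulfan+AOS libraries (edgeR adjusted p up to 0.0898), and with each of the 3 marker scores (up to 0.101).

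Of 10 genes of the aryl hydrocarbon receptor pathway, 1 rose and 2 fell, where 7.02% of all genes tested rose and 4.81% fell. Ahr, the receptor itself, had 85.1, 74.1 and 86.5 CPM in busulfan+AOS lungs and 91.6, 77.2 and 69.9 CPM in busulfan lungs, against 130, 112 and 101 CPM in AOS lungs and 126, 125 and 119 CPM in control lungs. All 6 libraries given busulfan were below the 6 without it, as for 2.61% of all genes tested. Ahr fell by 0.56 on the log2 scale (SE 0.08, edgeR adjusted p = 0.0034). It was called in 12 of 12 fits with 1 library fewer. Its target Cyp1a1 had the interval given above, -0.64 to 0.48. Nfe2l2, the transcription factor NRF2 of the oxidant response, rose by 0.53 (SE 0.10, edgeR adjusted p = 0.0086), to 301 ± 65.5 CPM with busulfan against 207 ± 7.41 CPM without it. Ugt1a6a, a glucuronosyltransferase that shares most exons with its neighbours in the Ugt1a locus and whose counts are therefore uncertain, fell by 0.25 (SE 0.06, edgeR adjusted p = 0.0266). Its call ended without control library 2, AOS library 2 or 3 or busulfan+AOS library 2 (edgeR adjusted p up to 0.0666), and with the hepatocyte (0.0759) or adipocyte (0.104) score.

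**Figure D4:**
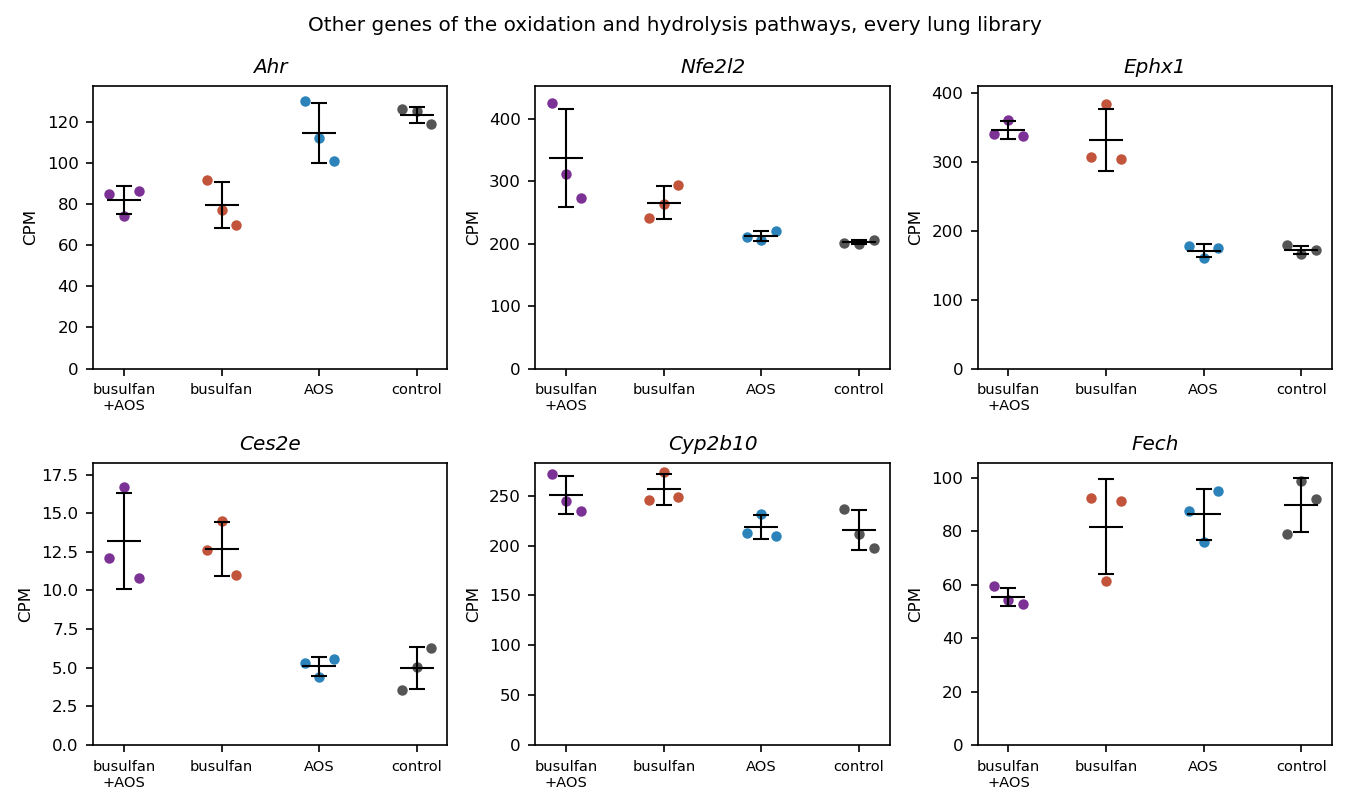
Level in CPM of 6 genes of the surrounding pathways; each point is 1 library, the horizontal bar is the mean and the whiskers are 1 SD (n = 3), with groups from left to right busulfan+AOS, busulfan, AOS and control. Ephx1, Nfe2l2 and Ces2e are higher, and Ahr lower, in every library given busulfan than in every library without it. Of the 15863 genes tested, 624 were higher and 414 lower in this way.

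Among 21 aldehyde and epoxide metabolism genes, 1 rose and 0 fell, where 7.02% of all genes tested rose and 4.81% fell. Ephx1, the microsomal epoxide hydrolase that opens epoxides made by P450 enzymes, had 341, 362 and 338 CPM in busulfan+AOS lungs and 308, 384 and 305 CPM in busulfan lungs. AOS lungs had 178, 161 and 175 CPM and control lungs 179, 166 and 172 CPM. All libraries given busulfan were above all those without it, as for 624 of the 15863 genes tested. Ephx1 rose by 0.98 on the log2 scale (SE 0.06, edgeR adjusted p = 2.06e-05), the smallest adjusted p of the genes of these lists. Of 8 xenobiotic nuclear receptor genes, 1 rose and 0 fell; Nr1h3, which encodes the oxysterol receptor LXR alpha, rose by 0.25 (SE 0.05, edgeR adjusted p = 0.0139; 0.0719, not called, with the adipocyte score).

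Markers of other cell types moved with some of these results. The summed level of 19 hepatocyte markers was 1073, 243 and 86.3 CPM in busulfan+AOS lungs and 48.3, 96.0 and 59.3 CPM in busulfan lungs, against 399, 248 and 256 CPM in AOS lungs and 131, 171 and 1467 CPM in control lungs. Albumin (Alb) reached 482 CPM in busulfan+AOS library 1, the library with the highest Aox1, and 683 CPM in control library 3, the highest of its group for Aox1, Aox3, Fmo2, Ces1d, Ces1g and Cyp1a1. Alb was above 0 in every library, and Adipoq was at 0 in control library 3. The 11 adipocyte markers summed to 872 CPM in AOS library 1 and to between 10.0 and 151 CPM in the other 11 libraries. AOS library 1 was also the highest of all libraries for Ces1f. None of the 19 hepatocyte and 10 tested adipocyte markers was called in the average of busulfan by edgeR, with list medians of -1.55 and -2.09 on the log2 scale, against -0.01 for all genes.

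With the hepatocyte score as a covariate, all 3 calls of the busulfan average remained: Aox3 at -0.58 (edgeR adjusted p = 0.0184), Fmo1 at -0.39 (0.0292) and Ces1f at -0.55 (0.0433). With the adipocyte score, Aox3 remained at -0.69 (edgeR adjusted p = 0.0224), while Fmo1 (-0.30) and Ces1f (-0.52) were no longer called. That score also lowered the calls over all genes. In busulfan+AOS against AOS lungs they went from 365 to 10, and in busulfan against control lungs from 192 to 137. Whether the loss is particular to Fmo1 and Ces1f was not tested. The 12 club cell markers summed to 28073 to 44492 CPM in busulfan+AOS lungs and 19737 to 42117 CPM in busulfan lungs, against 38759 to 64679 CPM in AOS lungs and 41369 to 47766 CPM in control lungs, and with the club cell score Aox3 was at -0.61 (edgeR adjusted p = 0.0111), Fmo1 at -0.39 (0.0209) and Ces1f at -0.65 (0.0285).

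The tissue label was checked with the same kind of list. The alveolar type 2 markers summed to between 19585 and 28440 CPM over all libraries, with Sftpc between 10123 and 15437 CPM, which are lung levels although the labels' tissue field says Cells. Of 10 alveolar type 1 markers 7 rose and 0 fell in the average of busulfan, Ager by 0.24 (SE 0.05, edgeR adjusted p = 0.0114), and of 10 B cell markers 10 fell and 0 rose. Their part in the changes of Aox3, Fmo1 and Ces1f was not tested. Of 13 fibroblast markers 1 rose and 0 fell, and of 11 capillary endothelial markers 2 rose and 2 fell. For all of these marker counts, the shares over all genes tested were 7.02% higher and 4.81% lower.

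**Figure D5:**
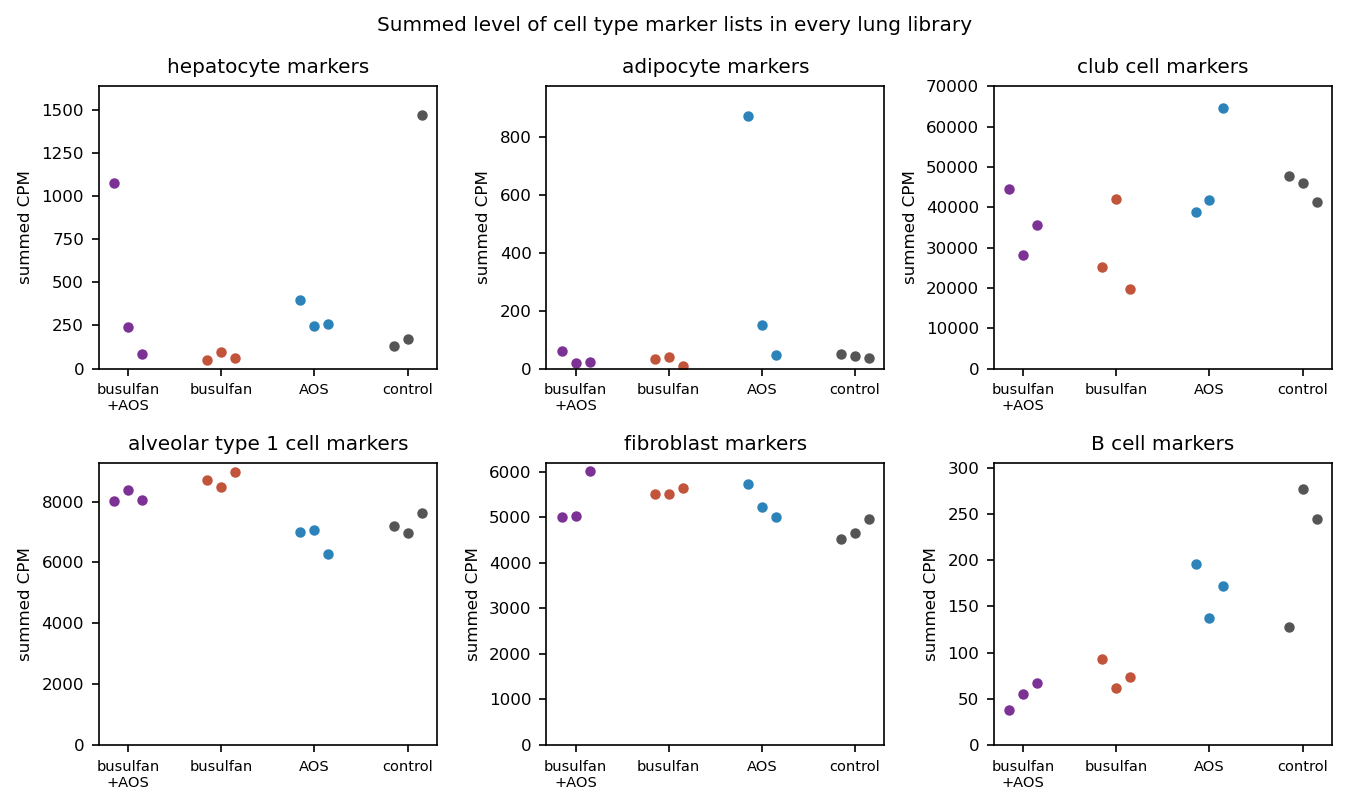
Summed CPM of 6 lists of cell type markers; each point is 1 library, with groups from left to right busulfan+AOS, busulfan, AOS and control. Hepatocyte markers peak in busulfan+AOS library 1 (1073 CPM) and control library 3 (1467 CPM), adipocyte markers in AOS library 1 (872 CPM), and B cell markers are lower in every library given busulfan than in every library without it.

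The 9 genes did not vary as 1 block over the 12 libraries. On log2 CPM the Pearson correlation was 0.76 between Aox3 and Ces1f, 0.75 between Aox3 and Ces1d, 0.73 between Ces1d and Ces1f and 0.70 between Aox3 and Fmo1, but 0.36 between the adjacent Aox1 and Aox3 and 0.04 between the adjacent Fmo1 and Fmo2. The libraries share their treatment groups and their scaling, and these values are descriptions. Likeness was searched over the genes tested, leaving out predicted genes and genes with no symbol. The patterns most like that of Aox3 were those of Acsf2 (r = 0.958), Slc10a5 (0.945) and Efhb (0.938). Each fell in the average of busulfan, by 0.57, 1.31 and 0.65 on the log2 scale (edgeR adjusted p = 0.00427, 0.00668 and 0.0104). Nearest to Fmo1 were Stat5a (r = 0.966), Rbm12b1 (0.960) and Clec14a (0.943), which fell by 0.50, 0.33 and 0.43 (edgeR adjusted p = 0.014, 0.00528 and 0.041). Nearest to Ces1f were Utp14b (r = 0.936), which fell by 0.74 (edgeR adjusted p = 0.0124), and Pon1 (0.909) and Rbp4 (0.902), which were not called (edgeR adjusted p = 0.0649 and 0.0709). These genes were chosen by correlation over the same 12 libraries. Their falls beside a member that fell follow largely from that choice and are not separate results.

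Of the genes nearest to the other 6, those named here were not called in that comparison. They were Hist1h2br (r = 0.869), Kcnip3 (0.866) and Upp2 (0.858) for Aox1, Eloa (0.910), Nox4 (0.867) and Uprt (0.839) for Fmo2, and AI429214 (0.939), Sla2 (0.919) and Ctnna2 (0.918) for Ces1d. For Ces1g they included Rnf113a2 (0.891) and Kdm1a (0.816), for Cyp1a1 Borcs7 (0.839), Aldh2 (0.829) and Psmc3ip (0.796), and for Cyp4b1 Tomm22 (0.842), Eya2 (0.824) and Arhgap44 (0.805). Each is a correlation over 12 libraries, chosen among the highest of the genes tested, leaving out predicted genes and genes with no symbol.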

How the data were processed

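RNA sequencing of total RNA from lung gave 1 deposited table of 19726 genes. Its estimated counts, which the authors did not normalise before they were deposited, were whole numbers for 75.9 to 77.1% of genes per library. Its other values are FPKM computed by the authors. The headers name no unit for the second kind; FPKM was inferred from the deposited values, since count divided by library total and value gave 1 length per gene with a median coefficient of variation of 0.705% over 11000 genes. Per the submitters' processing notes the genome was mm10. For the aligner, the counter and the use of strand, the answer is not given in the sources used here. Titles name the busulfan group BA0 and the design text B0, and both were taken as the same group. The authors' group means were not used.

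Estimated counts were rounded, filtered with filterByExpr and scaled by TMM (factors 0.963 to 1.03). A model with 1 mean per group over all 12 libraries was tested with edgeR 4.0.16 (quasi-likelihood F test, R 4.3.3, common biological coefficient of variation 0.229) and Benjamini-Hochberg adjustment over 15863 genes. For busulfan against control, log2 fold changes had a median SE of 0.132. A count of 0 allows up to 3 counts, or 0.175 to 0.185 CPM, a limit for counting error alone. The script was tested on simulated data. Alternatives were DESeq2 1.42.0, limma-voom (limma 3.58.1), median-of-ratios and upper-quartile factors, no low-count filter, a fit of only the groups compared, a replicate block, 3 marker scores as covariates and leaving out each library. The 9 genes and all lists were chosen with earlier results of these data known. Named genes from a list were up to 4 with the smallest p among those called in the busulfan average and up to 2 called elsewhere, and for each member the 3 most correlated genes with a symbol that is not a predicted one; a gene that this rule takes is not reported here. Promoter windows and their starts are RefSeq's on GRCm38.p6, and exons GENCODE's. Figures were drawn with matplotlib 3.10.9 in Python 3.11.15.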

Additional observations from a re-analysis of the deposited data

Results flagged for a closer look

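The interaction of busulfan and AOS for Aox1 was called by DESeq2 (1.13 on the log2 scale, adjusted p = 0.00867) and was not called by edgeR (1.13, unadjusted p = 0.00068, adjusted p = 0.989) or by limma-voom (1.08, adjusted p = 0.991). All 3 busulfan+AOS libraries were above all 3 AOS libraries, and all 3 busulfan libraries were below all 3 control libraries. Busulfan+AOS library 1 had 136 CPM of Aox1, against 76.9 and 86.6 CPM in the other busulfan+AOS libraries. Without that library the interaction was 0.84 (edgeR adjusted p = 0.155). Its summed hepatocyte marker level was 1073 CPM. Control library 3 had 1467 CPM of these markers and 93.7 CPM of Aox1. With the hepatocyte score as a covariate the interaction was 0.86 (edgeR adjusted p = 0.999). The part of the hepatocyte markers in the interaction was not tested.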

How the results depend on the processing

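Of 1359 values of the 9 genes under alternatives, 1333 kept their side of the threshold, 15 lost a call and 11 gained one, with 0 reversals among called genes and 47 changes of sign where neither fit made a call. In busulfan against control, 1 gene was called; DESeq2 called 3 (Aox1, Aox3, Ces1f), the replicate block 0, each of the 3 covariates (hepatocyte, club cell, adipocyte score) 0, and the fits without a library 0 to 3. With only those 2 groups fitted the 1 call was Aox1 (adjusted p = 0.0411) in place of Aox3 (0.124). In busulfan+AOS against AOS DESeq2 called 2, in the busulfan average the adipocyte score left 1 (Aox3), and in busulfan+AOS against busulfan and the interaction DESeq2 called 1 (Aox1), where edgeR called 0. The labels do not say whether replicate numbers pair the samples. As deviations from group means, same-number libraries correlated between -0.253 and 0.181, 2 of 18 pairs above 0.1. With 3 libraries a group this cannot settle it. Over all genes, the replicate block called 55 genes for busulfan against control, 163 for busulfan+AOS against AOS and 1351 for the average, against 192, 365 and 1877; other alternatives gave 13 to 975, 10 to 1249 and 513 to 2676, and fits without a library 35 to 230, 42 to 492 and 1079 to 1667. For AOS against control, busulfan+AOS against busulfan, the AOS average and the interaction, alternatives called at most 11, 29, 13 and 16 genes. The cause of these differences was not tested. With 3 libraries a group, log2 differences of Ces1g and Cyp1a1 between busulfan and control had the widest SE of the 9 genes (0.35 and 0.36).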
